A study of Homo sapiens with 4 samples.

Results

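Colo205 is an established colon cancer cell line, and the comparison described here set a derivative of it that is resistant to PLX4720 against its parental line. The derivative is labelled Colo205RC, and 1 array of it was compared with 1 array of parental Colo205, chosen by their titles. These are 2 of the 4 arrays of the series. The other two hold a second colon cancer line, HT29, and its own PLX4720-resistant derivative HT29RC. PLX4720 is a kinase inhibitor that lowers signalling through the ERK cascade. Both derivatives had been selected in rising doses of it. The series text calls them clones without saying whether each grew from 1 cell. Cultures received 10% serum. Both derivatives spent the last 24 h before harvest without PLX4720, so drug was withdrawn from both resistant samples, and the labels give no drug exposure for the parents. Whether the cultures were grown separately is not stated in the labels. With 1 array for each line and status there is no replicate, and every value below is a reading of 1 array or a difference of a pair of such readings, with no test and no SD.

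Expression is given on the log2 scale of the table that the authors deposited, so a difference of 1 between arrays is 2-fold and a difference of 2 is 4-fold. All differences are resistant minus parental. Each gene is represented by 1 probe set, a group of short array probes for its transcript, and 13651 of 19775 genes reached 5.73, which is the median over the whole table, on at least 1 of the 4 arrays. A reading below 5.73 was not shown to lie above background, and a difference that rests on one has no exact size or rank. For some of these the difference with the low reading raised to 5.73 is given as the part measured above that value, and where both readings are printed it can be read from them. Probe sets of the same gene scattered with an SD of 0.30 in the Colo205 differences, over 6615 genes, which measures scatter within a pair of arrays and not between cultures.

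Several of the gene groups below respond to signals that cells receive or to stress. Small proline-rich (SPRR) proteins are cross-linked into the cornified envelope of squamous epithelium and are classical targets of AP-1, a transcription factor family that acts downstream of the ERK cascade. The integrated stress response raises translation of the factor ATF4 when amino acids run short or unfolded protein builds up, and ATF4 drives genes of amino acid synthesis, amino acid import and tRNA charging. Interferon-stimulated genes carry short response elements in their promoters, and FK506-binding proteins, disulfide isomerases and chaperones fold secreted proteins in the endoplasmic reticulum.

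Promoters of 6 genes from these groups are shown because the groups supply some of the most changed genes, with the letters of the known element in capitals. Each is the 250 bases before the RefSeq gene start in GRCh38.p14, read 5' to 3' on the gene's strand. The letters searched on both strands were TGANTCA for AP-1, a pair of GAAA blocks with 2 bases between them for the interferon element and TGATGNAA for the amino acid element, where N is any base. The AP-1 promoters are SPRR1B at chr1:153030953-153031202, SPRR1A at chr1:152983831-152984080 and SPRR3 at chr1:153001499-153001748, all on the plus strand. The interferon promoters are IFIT1 at chr10:89392373-89392622 and IFI27 at chr14:94110486-94110735, both on the plus strand. The amino acid promoter is ASNS at chr7:97872409-97872658 on the minus strand.
SPRR1B: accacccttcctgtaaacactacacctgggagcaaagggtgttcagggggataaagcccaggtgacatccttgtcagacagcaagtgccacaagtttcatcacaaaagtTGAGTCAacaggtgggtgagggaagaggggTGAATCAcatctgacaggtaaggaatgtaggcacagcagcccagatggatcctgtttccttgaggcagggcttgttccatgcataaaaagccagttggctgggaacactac
SPRR1A: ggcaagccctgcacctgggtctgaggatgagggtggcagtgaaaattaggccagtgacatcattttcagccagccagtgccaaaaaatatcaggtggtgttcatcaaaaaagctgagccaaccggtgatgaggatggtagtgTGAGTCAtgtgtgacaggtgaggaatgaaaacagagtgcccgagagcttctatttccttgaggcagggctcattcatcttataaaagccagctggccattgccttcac
SPRR3: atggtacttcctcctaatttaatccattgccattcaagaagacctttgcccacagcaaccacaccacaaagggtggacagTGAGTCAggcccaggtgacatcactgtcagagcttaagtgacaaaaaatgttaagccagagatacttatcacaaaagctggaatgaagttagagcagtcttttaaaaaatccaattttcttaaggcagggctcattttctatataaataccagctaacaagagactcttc
IFIT1: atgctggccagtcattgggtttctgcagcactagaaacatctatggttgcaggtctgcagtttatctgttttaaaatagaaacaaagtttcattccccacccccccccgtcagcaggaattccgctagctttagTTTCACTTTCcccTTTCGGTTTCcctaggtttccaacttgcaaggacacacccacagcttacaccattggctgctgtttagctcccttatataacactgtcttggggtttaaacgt
IFI27: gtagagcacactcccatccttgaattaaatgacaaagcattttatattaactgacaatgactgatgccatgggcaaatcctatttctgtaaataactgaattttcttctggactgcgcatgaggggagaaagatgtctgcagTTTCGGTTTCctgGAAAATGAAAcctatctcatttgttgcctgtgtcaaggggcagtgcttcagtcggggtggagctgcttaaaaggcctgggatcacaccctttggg
ASNS: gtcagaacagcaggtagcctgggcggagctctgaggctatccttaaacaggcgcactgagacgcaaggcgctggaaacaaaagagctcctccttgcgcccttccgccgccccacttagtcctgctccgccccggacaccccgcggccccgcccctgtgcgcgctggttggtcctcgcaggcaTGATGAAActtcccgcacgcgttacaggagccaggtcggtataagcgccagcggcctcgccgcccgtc
The first match in SPRR1B starts 141 bases before the gene start and the second 111 bases before it, that in SPRR1A 108 and that in SPRR3 170. The AP-1 letters occurred in the promoters of all 3 SPRR genes that were past 2-fold and in 1 of the 3 measured SPRR genes that were not, SPRR2G, against 6.60% of all 27305 promoters of the same length. The interferon letters occurred in 17 of the 27 interferon-stimulated genes with a promoter sequence, against 3.07% of all. The amino acid letters occurred in 3 of 13 genes of amino acid synthesis and the ATF4 response that were past 2-fold lower, ASNS, ATF3 and CHAC1, against 3.19% of all. Without ATF3, whose probe sets differ in sign, the count was 2 of 12. A match is a description of letters and not of a bound site.

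The arrays carried the marks of colon epithelium. Of 12 colon markers on the array, 10 in the parent and 11 in the derivative were at or above 5.73. EPCAM, the epithelial adhesion molecule, read 13.91 in the parental array and 13.96 in the resistant one, and keratin KRT18 read 14.32 and 14.35. KRT20, a keratin of differentiated colonocytes, was below 5.73 on both arrays. Of 13 lymphocyte markers, 3 were at or above 5.73 on each array, LCK, PRF1 and CD79A, and PTPRC, the pan-leukocyte marker, read 4.02 and 3.90. LCK, a T cell kinase, read 12.28 and 12.56. Of 10 markers of fibroblasts and endothelium, 5 were at or above 5.73 on each array, the highest being COL1A1 at 7.23 and 7.37.

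Control transcripts differed between these arrays too. The 24 poly-A spike probe sets, bacterial transcripts added to the RNA, had a median difference of -0.72 with a range from -1.13 to -0.43, against -0.43 in the HT29 pair. The 18 hybridisation spikes had a median of -0.05. The 7 measured mitochondrially encoded transcripts had a median of 0.40, with ND6 at 1.76, and a median of 0.54 in the HT29 pair. The 3' minus 5' reading of ACTB, a sign of RNA integrity, was 2.88 in parental and 3.13 in resistant Colo205, and that of GAPDH 0.52 and 0.66. The part of these differences in any result below was not tested.

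The derivative had far more genes lower than higher. In all 124 genes, or 0.908% of those kept, were 2-fold or more higher and 343, or 2.51%, were 2-fold or more lower, which together make 3.42%. Of the 13651 genes kept 6484 lay above 0 and 7148 below 0. At 4-fold or more 25 genes, or 0.183%, were higher and 65, or 0.476%, were lower. Centring each array on its median moved the median of all genes from -0.02 to 0.10 and gave 166 higher and 271 lower genes, so that 38.0% of the genes past 2-fold were higher in place of 26.6%. A gene given below between -1 and -1.12 was within 2-fold once arrays were centred. The readings of the pair correlated across genes at a Pearson r of 0.976, and genes are not independent replicates. Of the 65 genes 4-fold lower, 38 read below 5.73 in the derivative, and of the 25 genes 4-fold higher, 8 read below it in the parent. With those low readings raised to 5.73, the differences of the 38 ran from -4.81 to -0.28 with a median of -1.74, and those of the 8 from 0.18 to 6.57 with a median of 1.95.

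**Figure D1:**
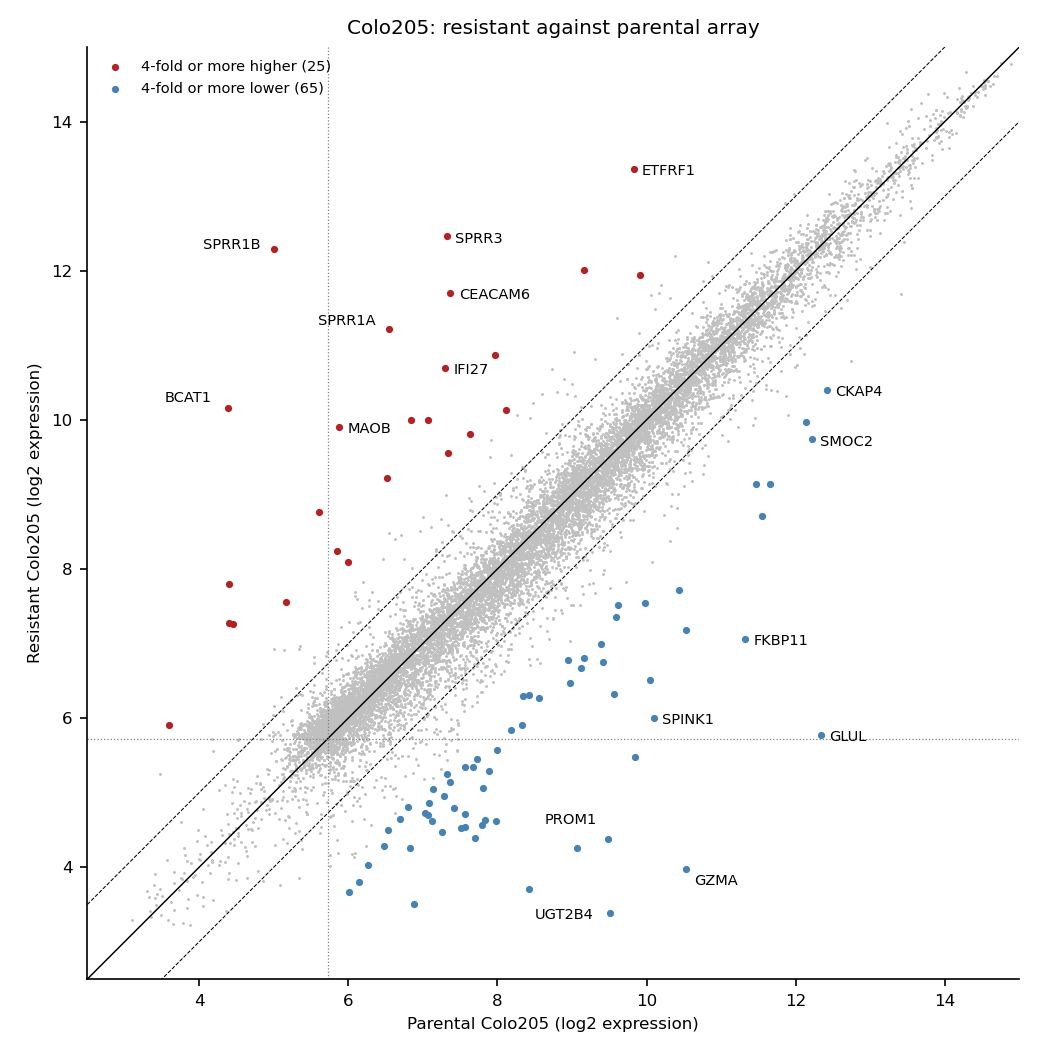
Log2 expression of 13651 genes in resistant Colo205 (vertical axis) against parental Colo205 (horizontal axis), 1 array each. The solid line marks equal readings, the dashed lines 2-fold, and the dotted lines 5.73. Of the coloured genes, 25 lie above and 65 below the 4-fold limit, many of the lower ones in the strip below 5.73 on the vertical axis.

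Among the genes that were higher, the SPRR group held the largest difference. SPRR1B read 5.01 in the parental array and 12.30 in the resistant one, a difference of 7.29, or 6.57 above 5.73. SPRR3 read 7.32 and 12.46, a difference of 5.14, and SPRR1A read 6.54 and 11.22, a difference of 4.68. These 3 were the SPRR genes past 2-fold of 6 measured, the median of the 6 being 2.45 against -0.02 for all genes. In the HT29 pair the same 3 were past 2-fold higher, SPRR1B at 4.67, and the group median was 1.63. A second SPRR3 probe set differed by 0.47 and a second SPRR1A probe set by 3.92. Because SPRR genes are similar in sequence, a probe set can pick up transcripts of a close relative.

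The rest of the squamous program differed far less. Of 15 other measured envelope precursors and cross-linkers, 0 were 2-fold or more higher and 1 was lower, CALML3, a calmodulin-like protein of epithelium, which read 9.15 and 8.12. Transglutaminase TGM1, which cross-links the envelope, differed by 0.35 with 1 reading below 5.73, and the membrane protein gene EMP1 by 0.81. Of 5 squamous keratins, 0 were past 2-fold, with KRT5 at 0.25 and KRT16 at 0.47. Their medians were 0.24 and 0.25. As for HT29, 5 of the 15 envelope genes were 2-fold or more higher, with no test of the lines against each other.

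Calcium-binding and adhesion genes of epithelium were also among the higher genes. S100A2, an S100 protein of basal epithelial cells, read 7.64 in the parental array and 9.81 in the resistant one, and S100A11 read 11.86 and 12.90. These were the 2 of 12 measured S100 genes past 2-fold, against 0.908% of all genes higher. The group median was 0.47, against -0.02 for all genes. In the HT29 pair it was 0.48, with 3 of the 12 past 2-fold higher. S100A14 at -0.51 and S100P at -0.34 had the lowest differences of the 12.

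CEACAM6 and CEACAM5, adhesion molecules anchored in the outer membrane of colon cells, were higher while the rest of their family was not. CEACAM6 read 7.37 and 11.70, a difference of 4.33, with probe sets from 4.33 to 4.51. CEACAM5, the carcinoembryonic antigen of clinical tests, read 6.84 and 10.00, but its probe sets ranged from 0.04 to 3.16. The other 5 measured members lay between -0.35 (CEACAM1) and -0.02 (CEACAM4), so the family median was -0.04, which became 0.08 on median-centred arrays. GPA33, a surface antigen of the intestinal lining, read 9.92 and 11.95, and CDH17, the intestinal cadherin, 10.12 and 11.49. CDH17 read 5.30 and 11.24 in the HT29 pair.

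Several enzymes were among the genes 4-fold higher, of which BCAT1, CMAS and ETFRF1 lie in 1 stretch of chromosome 12 described further on. BCAT1, the cytosolic transaminase that opens branched-chain amino acid breakdown, read 4.38 in the parental array and 10.16 in the resistant one, or 4.44 above 5.73, and its 4 probe sets ranged from 2.15 to 5.97. MAOB, a mitochondrial monoamine oxidase, read 5.88 and 9.91, while its paralogue MAOA differed by 0.78. GPAT3, an acyltransferase of triglyceride synthesis, read 7.07 and 10.00 and was the 1 gene past 2-fold higher of 25 measured in its group. CMAS, which activates sialic acid for transfer to glycans, read 9.16 and 12.01, with probe sets from 0.77 to 2.85. ETFRF1, a regulator of the mitochondrial electron transfer flavoprotein, read 9.83 and 13.36, with probe sets at 3.54 and 3.57.

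Secreted and matrix proteins followed. REG4, a lectin of intestinal secretory cells, read 5.61 and 8.76, with probe sets at 3.15 and 3.36. TNC, the matrix glycoprotein tenascin C, read 7.96 and 10.87. TCN1, a vitamin B12 carrier of secretions, read 6.52 and 9.22. These stood beside groups that were not shifted. Of 10 measured mucins 0 were past 2-fold, with a range from -0.58 to 0.33, and of 27 laminins and matrix proteins TNC was the 1 past 2-fold higher.

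Scaffold, calcium and transport genes were among the 25 as well. AKAP12, a scaffold for protein kinases A and C, read 4.40 and 7.79, a difference of 3.40, or 2.07 above 5.73. That rests on a single probe set of 5, the others lying between 0.12 and 0.79. DCLK1, a kinase known as a marker of tuft cells, read 4.40 and 7.28, or 1.55 above 5.73. CALB1, the calcium buffer calbindin, read 7.34 and 9.56. The magnesium transporter gene SLC41A2 read 5.17 and 7.55, the coronin gene CORO2A 6.0 and 8.09, and FGD4, an exchange factor for CDC42, 8.11 and 10.13. SMIM31, a small membrane protein, read 5.85 and 8.25. DNAI7 read 3.60 and 5.90, only 0.18 above 5.73.

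**Figure D2:**
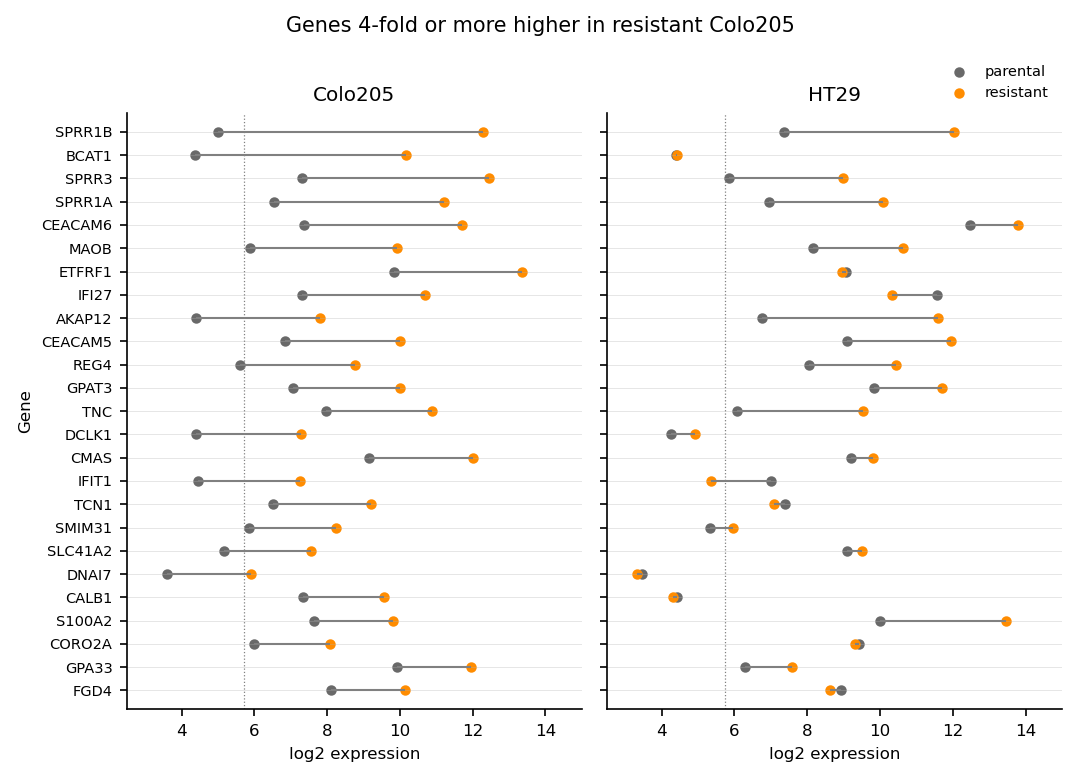
Log2 expression (horizontal axis) of the 25 genes 4-fold or more higher in resistant Colo205, with parental (grey) and resistant (orange) readings of the Colo205 pair on the left and the HT29 pair on the right. The dotted line is 5.73. SPRR1B spans 5.01 to 12.30 in Colo205, and BCAT1 lies at 4.40 and 4.42 in HT29.

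Protease and inhibitor genes past 2-fold went both ways. PLAU, the urokinase that activates plasminogen, read 6.62 and 8.40, and SERPINE2, a serpin that inhibits such proteases, 8.73 and 10.68. SERPINB5, known as maspin, read 10.82 and 12.11. On the other side SPINK1, the trypsin inhibitor of pancreas and gut, read 10.10 and 6.0. PRSS2, a trypsinogen, read 13.41 and 11.69, TMPRSS3 7.91 and 6.64, and the serpin genes SERPINA4 and SERPINI1 differed by -1.32 and -1.09. TIMP2, an inhibitor of matrix metalloproteinases, read 9.56 and 6.33 with probe sets from -3.23 to -1.09, and TIMP4 read 7.29 and 5.73. Of the 50 measured genes of the whole group 3 were higher and 7 lower, against 0.908% and 2.51% of all genes. None of the metalloproteinases themselves was past 2-fold in the 15 genes that hold them and their inhibitors. SLPI, the secretory leukocyte protease inhibitor, which is outside that list, read 11.66 and 9.13.

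Interferon-stimulated genes differed member by member. IFI27 read 7.30 in the parental array and 10.70 in the resistant one, a difference of 3.40. IFIT1, which binds foreign RNA, read 4.45 and 7.26, or 1.53 above 5.73. IFI44 read 4.18 and 5.72, both below 5.73. GBP1, an interferon-induced GTPase, went the other way, from 7.32 to 5.25, with probe sets from -2.31 to -2.07. IFI16, a DNA sensor outside the list, read 6.69 and 4.64. Of the 34 measured genes 3 were 2-fold or more higher, 1 was lower and 22 lay above 0, with a median of 0.26 against -0.02 for all genes. MX1, at 0.89, and DDX60, at 0.94, lay just inside 2-fold, and IFITM3 was at -0.96.

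The factors of the interferon pathway mostly read alike. IRF9, the DNA-binding part of the complex that drives interferon-stimulated genes, read 7.39 and 8.51 and was the 1 of 16 factors and receptors past 2-fold. IRF1 was at -0.57 and JAK1 at -0.01. Of 20 antigen presentation genes 2 were past 2-fold, both lower, ERAP2, which trims peptides, at 11.12 and 10.01, and HLA-DMA, which loads class II molecules, at 6.62 and 5.06. In the HT29 pair 3 interferon-stimulated genes were higher and 5 lower, with a median of -0.44.

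Detoxifying enzymes under NRF2, the factor that answers oxidants, lay mostly above 0, with few genes past 2-fold. GCLM, the modifier subunit of the enzyme that starts glutathione synthesis, read 9.90 and 11.16 and was the 1 of 21 past 2-fold, with 16 above 0 and a median of 0.27. Its 3 probe sets ranged from 0.65 to 1.26. Its partner GCLC was at 0.56, and SRXN1 and GSR at 0.52 each. Glutathione S-transferases did not move with the NRF2 genes, with 0 of 15 past 2-fold and a median of -0.06. A separate list of xenobiotic enzymes held other higher genes, while their groups were not shifted. ALDH3A1, an aldehyde dehydrogenase, read 10.32 and 11.63, and ALDH8A1 read 6.70 and 8.45, but 8 of 14 in that group lay below 0, with a median of -0.15. AKR1B10, an aldo-keto reductase, read 8.84 and 9.87, and its group of 18 had a median of -0.05. CYP3A5 read 8.33 and 9.36, and the 21 cytochromes P450 had a median of -0.01.

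Some other xenobiotic genes were lower. UGT2B4, which glucuronidates bile acids and steroids, read 9.51 in the parental array and 3.39 in the resistant one, or -3.78 when 3.39 is raised to 5.73. UGT2A3 of the same family read 7.41 and 4.80, while UGT1A6 was at -0.02. CYP2B6, a drug-metabolising cytochrome, read 9.39 and 6.99. ABCB1, the drug efflux pump, read 6.15 and 3.80, or -0.42 with the low reading at 5.73. It was the 1 of 17 ABC transporters past 2-fold, and ABCC1 was at -0.07 and ABCG2 at -0.17. Over all 79 xenobiotic genes 4 were higher and 4 lower, against 0.908% and 2.51% of all genes. On median-centred arrays the counts were 7 and 4.

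GLUL, glutamine synthetase, was among the genes with the largest differences on the lower side. It read 12.34 in the parental array and 5.77 in the resistant one, a difference of -6.57, with its 3 probe sets at -6.57, -3.68 and -1.94, and 11.93 and 11.81 in the HT29 pair. ASNS, which makes asparagine from glutamine, read 11.89 and 10.07, and OAT, the ornithine aminotransferase, 11.93 and 10.88. The other 12 of 15 glutamine and glutamate genes lay within 2-fold, GLUD1 at -0.15 and GOT2 at 0.27. The group median was -0.15, which was -0.03 on median-centred arrays.

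In serine synthesis the first enzyme was past 2-fold lower. PHGDH, that enzyme, read 10.08 and 8.09, while PSAT1 of the next step, at -0.95, and PSPH of the last, at -0.45, lay within 2-fold. SHMT2, the mitochondrial enzyme that turns serine into glycine, read 11.98 and 10.71. CTH, which makes cysteine, read 7.13 and 5.05, or -1.41 with the low reading at 5.73. In this group 3 of 16 were past 2-fold lower and 0 higher, against 2.51% and 0.908% of all genes. ALDH6A1, of valine breakdown, read 9.42 and 7.93, so that in branched-chain breakdown 1 gene was higher, BCAT1, and 1 lower of 19. DNAJC12, a co-chaperone of the aromatic amino acid hydroxylases, read 9.85 and 5.47, with probe sets from -4.37 to -1.85. It read 7.72 and 9.05 in the HT29 pair.

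Genes of the ATF4 response lay mostly below 0. Of its 17 measured regulators and targets 7 were 2-fold or more lower and 0 higher, 16 lay below 0, and the median was -0.72. Of all genes 2.51% were 2-fold or more lower, and 7148 of 13651 lay below 0. The poly-A spikes between the same arrays had a median of -0.72 too, while that of all genes was -0.02. The group median was -0.60 on median-centred arrays, where 6 of the 17 were 2-fold or more lower. Any part of the spike difference in this group was not tested. DDIT4, an inhibitor of mTORC1, read 10.43 and 7.72. TRIB3, a pseudokinase that feeds back on ATF4, read 11.43 and 9.93, and CHAC1, which degrades glutathione, 8.04 and 6.84. The growth factor gene VEGFA read 10.41 and 8.55, VLDLR 7.44 and 6.31, and EIF4EBP1, a brake on translation, 10.60 and 9.60. ATF3 read 6.72 and 4.91, but another of its probe sets differed by 0.39, so its direction is not settled. With ATF3 at 0.39 the group had 6 genes 2-fold or more lower and 15 below 0, with a median of -0.66. VEGFA had probe sets from -1.86 to -0.18, and only that at -1.86 was past 2-fold. ATF4 itself was at -0.66 and DDIT3 at -0.84, and SQSTM1, which NRF2 also drives, was at 0.56.

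Genes further down the response were less moved. Of 17 aminoacyl-tRNA synthetases 0 were past 2-fold, with a median of -0.21 and a range from -0.96 (SARS1) to 0.38 (VARS1). Of 19 amino acid transporters 1 was lower, SLC43A1, which read 9.25 and 7.99, and the cystine transporter SLC7A11 was at 0.06. Over the whole list of 53 genes 8 were lower, 0 were higher and 41 lay below 0, with a median of -0.37 in Colo205 and -0.09 in the HT29 pair. With chromosome medians subtracted, 7 of the 53 were lower and the median was -0.38.

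Protein folding in the endoplasmic reticulum showed large differences in a few genes and small ones elsewhere. FKBP11, a prolyl isomerase of secretory cells, read 11.33 in the parental array and 7.06 in the resistant one, a difference of -4.26, with probe sets from -4.43 to -1.07. FKBP9 of the same family read 9.50 and 7.74, while in the HT29 pair it read 9.75 and 11.03. DNAJB9, a co-chaperone, read 10.58 and 9.41, ERO1B, an oxidase of secretory cells, 7.93 and 6.64, and ERP29 12.14 and 11.14. CKAP4, a sheet-forming membrane protein of the endoplasmic reticulum outside the list, read 12.42 and 10.40, with probe sets at -2.02 and -2.01.

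The main chaperones stayed close to their parental readings. HSPA5 was at 0.14, CALR at -0.07 and HSP90B1 at -0.12. Of 61 measured genes 5 were lower and 0 higher, against 2.51% and 0.908% of all genes. In the group 48 lay below 0, against 7148 of all 13651, with a median of -0.14 that was -0.02 on median-centred arrays. BHLHA15, a transcription factor that matures secretory cells, read 7.81 and 5.07, and XBP1, which acts upstream of it, was at -0.51. BHLHA15 is outside the list of such factors. Of the 9 measured transcription factors of secretory cells on that list 8 lay below 0 and 0 were past 2-fold. TFF3, a goblet cell peptide, read 12.61 and 11.50, and LCN2, an iron-trapping defence protein, 11.46 and 9.14, so that in the 16 goblet and Paneth products 1 was higher, REG4, and 2 lower.

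**Figure D3:**
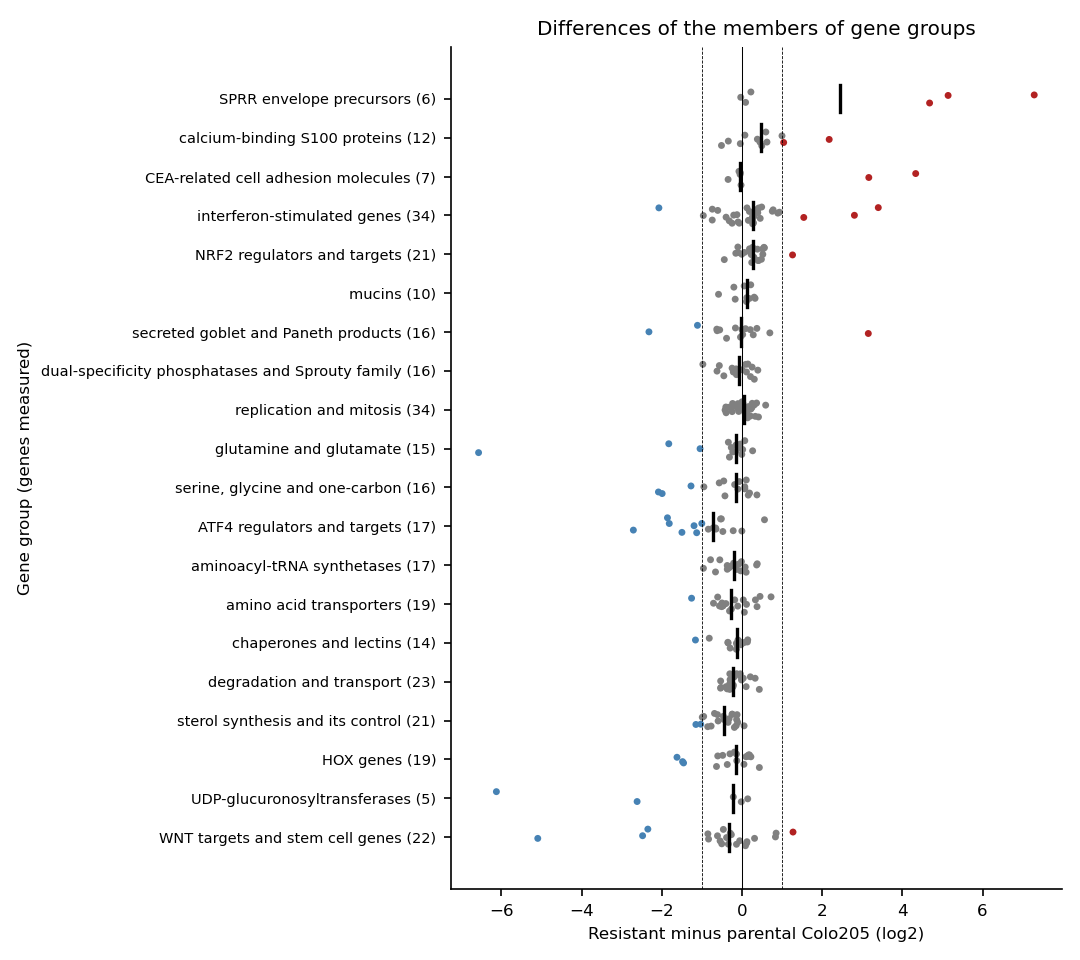
Difference of each measured member (points, horizontal axis, log2) in 20 gene groups, with the number measured in brackets, the group median as a black bar, and 2-fold limits as dashed lines. Red points are 2-fold or more higher and blue points 2-fold or more lower. The SPRR and CEACAM groups split into far higher and unmoved members, and 16 of the 17 ATF4 regulators and targets lie below 0, or 15 with ATF3 at its other probe set.

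Sterol synthesis genes lay mostly below 0. Of 21 genes of sterol synthesis and its control 20 lay below 0, against 7148 of all 13651 genes. The group median was -0.45 in Colo205 and -0.37 in the HT29 pair. The demethylase MSMO1, at 11.42 and 10.27, and the cyclase LSS, at 9.68 and 8.66, were the 2 past 2-fold, although another LSS probe set was at -0.01, and SREBF2, the factor that controls the pathway, was at -0.69. Of 16 fatty acid genes 4 were lower and 1 higher, against 2.51% and 0.908% of all genes. ELOVL7, an elongase, read 7.57 and 4.54, or -1.84 with the floor at 5.73, and ACSM3, a medium-chain acyl-CoA synthetase, 7.38 and 5.71. ACSL1, a long-chain one, read 11.10 and 9.72, and SCD, which desaturates stearate, 13.45 and 12.38. ACSS1, which activates acetate in mitochondria, was the higher one at 6.09 and 7.63. The poly-A spikes between these arrays had a median of -0.72, while that of all genes was -0.02. On median-centred arrays the sterol median was -0.33. Any part of the spike difference in these lipid groups was not tested.

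Of 25 genes of glycerolipid synthesis and lipid droplets 1 was higher, GPAT3, and 2 were lower, with 13 above 0 and a median of 0.01. PNPLA3, a lipase of lipid droplets, read 7.73 and 6.22, and LPIN1, a phosphatidate phosphatase, 10.35 and 9.32. LPCAT2, which remodels phospholipids, read 7.79 and 4.56, or -2.07 with the floor, with probe sets from -3.23 to -1.28. PLA1A, a phospholipase, read 6.53 and 4.50. OXCT1, which lets cells burn ketone bodies, read 8.56 and 6.28.

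Only 2 absorptive cell genes were past 2-fold lower, while their group was not shifted. PDZK1, a scaffold for brush border transporters, read 11.55 and 8.71. FABP1, a fatty acid carrier of enterocytes, read 8.95 and 6.78, while in the HT29 pair it read 4.60 and 6.89. These were the 2 past 2-fold of 19 measured absorptive genes, against 2.51% of all genes lower. The group had 0 higher and a median of -0.05 (0.07 on median-centred arrays). The lower genes that follow lie outside that list. FABP6, an ileal bile acid carrier, read 9.17 and 6.80, and SLC23A1, a vitamin C transporter, 7.84 and 4.63, or -2.11 with the floor. APOH, a plasma glycoprotein, read 9.12 and 6.67, and SLC22A15, an organic cation transporter gene, 7.28 and 4.95.

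Genes of the WNT pathway and stem cells were lower in 4 cases and higher in 1. PROM1, the surface marker CD133, read 9.48 in the parental array and 4.39 in the resistant one, or -3.75 with the low reading at 5.73. FZD10, a WNT receptor, read 8.42 and 3.71, or -2.70 with the same floor, and its relatives FZD5 and FZD6 were at -0.03 and 0.00. SMOC2, a matrix protein of intestinal stem cells, read 12.22 and 9.74, and KIT, a receptor kinase, 8.19 and 5.84. LGR6, a receptor for R-spondins, read 5.55 and 6.82. Over 46 genes the median was -0.06, and LGR5, the stem cell receptor, was at 0.12 and AXIN2, a feedback target of the pathway, at -0.34.

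Genes better known from blood cells were lower without the rest of their lineage. GZMA, a protease of cytotoxic lymphocyte granules, read 10.53 in the parental array and 3.98 in the resistant one, or -4.81 with the low reading at 5.73. POU2AF1, a B cell coactivator, read 10.05 and 6.51, with probe sets at -3.54 and -1.75. NFE2, a factor of red cell and platelet precursors, read 7.98 and 4.61, or -2.25 with the floor. The other 17 of 20 measured cytotoxic and lymphoid genes lay within 2-fold, PRF1 at -0.27, CD79A at -0.18 and GATA1 at -0.08. PTPRC and CD3E were below 5.73 on both arrays, and LCK was at 0.28. ICAM4, of red cells, read 6.47 and 4.29, and PSTPIP2, of myeloid cells, 6.81 and 4.81.

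Signalling genes among the 4-fold lower ones were of many kinds. CCL20, a chemokine of mucosal epithelium, read 7.88 and 5.29, and PTGER4, a prostaglandin receptor, 6.83 and 4.26. NR2F1, an orphan nuclear receptor, read 8.98 and 6.47 and was the 1 of 28 nuclear receptors past 2-fold. GNAI1, an inhibitory G protein subunit, read 6.0 and 3.67, and PKIG, an inhibitor of protein kinase A, 6.27 and 4.03. These last readings lie only just above 5.73 in the parent, and with the floor the differences were -0.28 and -0.54. DAPK1, a death-associated kinase, read 7.03 and 4.72, PPM1L, a phosphatase, 8.43 and 6.31, and TESC, a calcium-binding protein, 9.62 and 7.52. The second probe sets reach -0.07 for PPM1L, -0.08 for the endosome tether EEA1 and -0.05 for LARP6, a collagen mRNA-binding protein, beside -2.11, -2.22 and -2.21. ARNT2, a partner of hypoxia factors, read 7.36 and 5.14, and FOXD1, a forkhead factor, 8.34 and 6.29.

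A few matrix and surface genes were among the lower ones, while their groups were not shifted. Of the 27 laminins and matrix proteins 2 were lower and 1 higher, with 15 above 0 and a median of 0.06, and of 19 integrins 0 were past 2-fold, with a median of 0.26. MATN2, a matrilin, read 6.88 and 3.51, or -1.16 with the floor, and the collagen cross-linker LOXL1 read 7.56 and 4.71. LOXL1-AS1, a transcript antisense to it, read 7.70 and 4.39. NRCAM, a neural adhesion molecule, read 8.32 and 5.90, and ST6GAL1, which caps glycans with sialic acid, 9.98 and 7.55. FUT1, a fucosyltransferase, read 7.40 and 5.85. Apart from these the 45 measured glycosyltransferases held 0 further genes past 2-fold.

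The remaining 4-fold lower genes have less defined roles in colon. STRIT1, a micropeptide that speeds the calcium pump of muscle, read 9.06 and 4.26, or -3.34 with the floor at 5.73, and COXFA4L3, a mitochondrial protein of epithelium, read 10.52 and 7.18. WDR72 differed by -2.66, ACP3, prostatic acid phosphatase, by -2.24, and TMT1A, a methyltransferase, by -2.16. The others read below 5.73 in the derivative, so the part above it is given. That part was -1.79 for NHS, -1.53 for TCEAL9 and -1.39 for DNAAF4, of cilia. It was -2.27 for CAPN6, a calpain without protease activity, and -1.35 for GPX8, an endoplasmic reticulum peroxidase. MUCL1 was at -1.95 by the same measure, and PLSCR4, a scramblase, read 7.73 and 5.45. The probe sets of TMT1A ranged from -2.16 to -0.18.

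**Figure D4:**
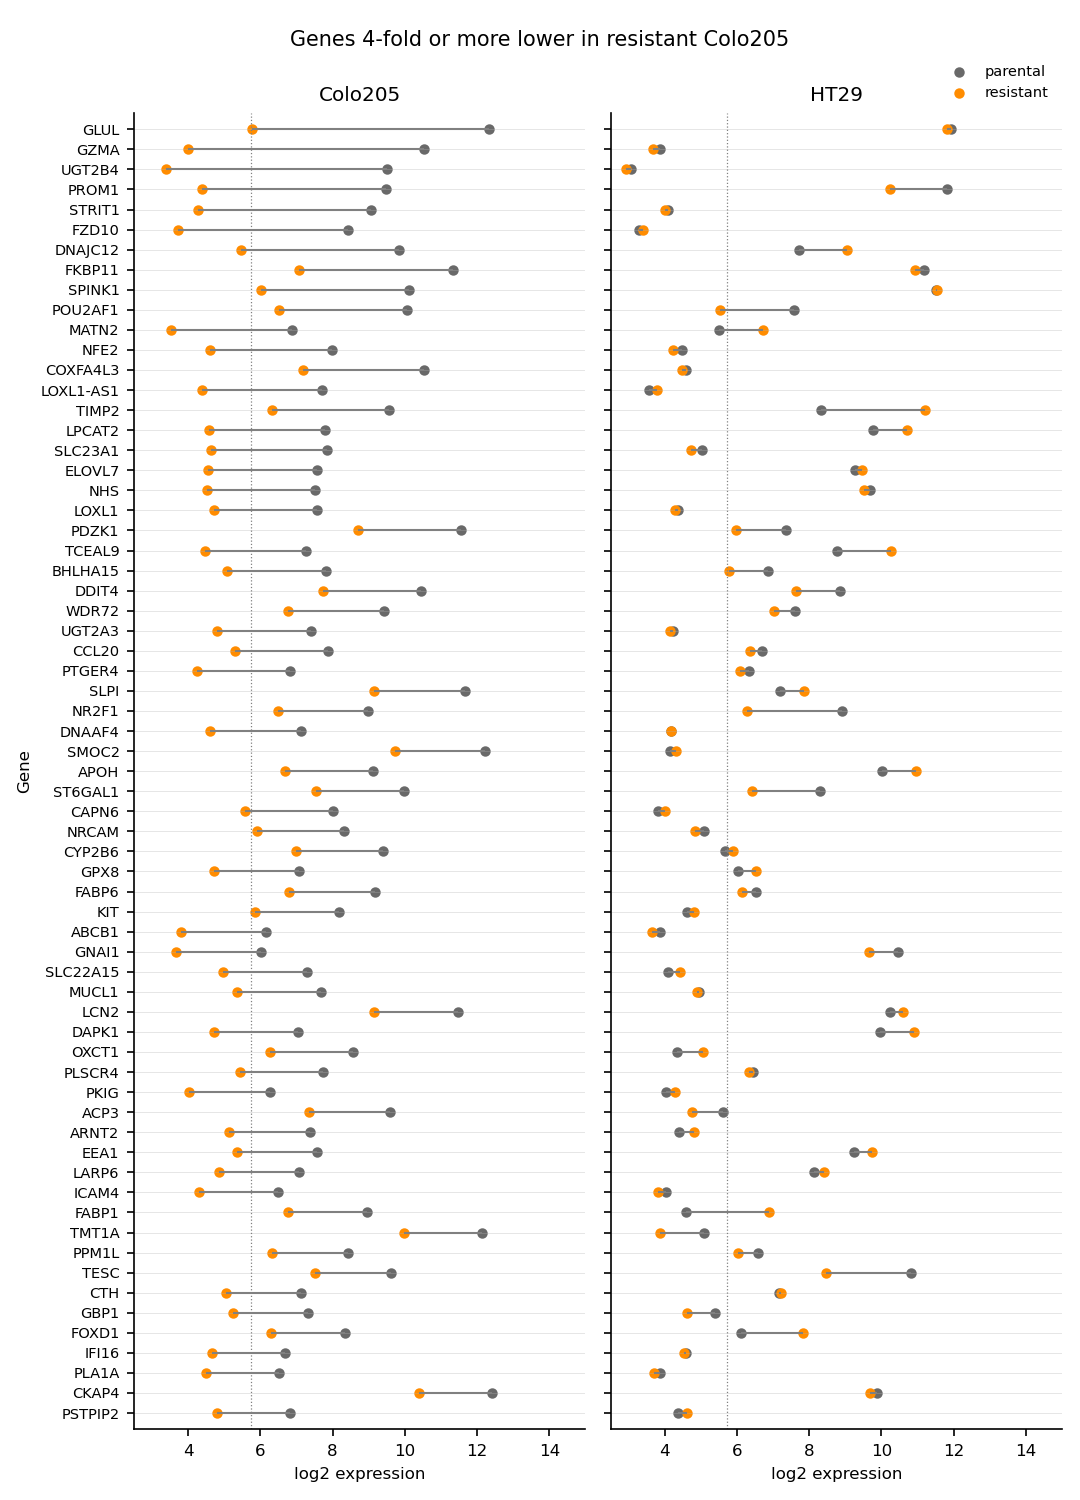
Log2 expression (horizontal axis) of the 65 genes 4-fold or more lower in resistant Colo205, with parental (grey) and resistant (orange) readings of the Colo205 pair on the left and the HT29 pair on the right. The dotted line is 5.73. GLUL runs from 12.34 to 5.77 in Colo205 and reads 11.93 and 11.81 in HT29, and 28 of the 65 lie below 5.73 on both HT29 arrays.

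Groups tied to the drug's pathway are read against the 3.42% of all genes that were past 2-fold. Of 50 measured ERK output genes 0 were past 2-fold in either direction, with a median of -0.11 (0.01 on median-centred arrays) and a range from -0.98 (DUSP16) to 0.85 (EPHA4). DUSP6, a phosphatase that reads out ERK activity, was at -0.56, FOSL1 at 0.27 and EGR1 at 0.67. Of these 50, 10 were higher and 2 lower in the HT29 pair. Of 33 kinases and scaffolds of the cascade 2 were lower, MAP3K8, a kinase upstream of MEK, at 8.78 and 7.75, and the scaffold KSR1 at 7.54 and 6.51. Neither was past 2-fold on median-centred arrays. The other KSR1 probe sets were at 0.11 and 0.14, which leaves 1 of 33, and a second MAP3K8 probe set was at -0.36.

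Of 82 receptor and growth factor genes 3 were higher and 5 lower. EGFR, the epidermal growth factor receptor, read 7.41 and 8.50 and was the 1 receptor tyrosine kinase of 25 past 2-fold higher, with KIT the 1 lower. EGFR has 8 probe sets, which ranged from 0.18 to 1.34 with a mean of 0.61, and 2 of them were past 2-fold. MET was at 0.70. EPHB6, a kinase-dead Eph receptor, read 8.87 and 9.94, and the ephrin genes EFNA2 and EFNA1 were at -1.39 and -1.08. KITLG, the ligand of KIT, read 11.75 and 10.38, and IGFBP6, which binds insulin-like growth factors, 6.47 and 8.13. Of 14 EGF family ligands and shedding proteases 0 were past 2-fold.

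Proliferation and death genes had few members past 2-fold, 1 higher and 1 lower of 55 cell cycle genes. Of 34 replication and mitosis genes 0 were past 2-fold, with a range from -0.42 (RRM1) to 0.59 (MKI67). Of 21 G1 cyclins, kinases and inhibitors 17 lay above 0, with a median of 0.23, 1 was higher and 1 was lower. These were cyclin-dependent kinase inhibitor genes, CDKN1C at 6.75 and 8.14 and CDKN1B at 10.75 and 9.28, with CDKN1A at 0.11. Of 18 BCL2 family genes 1 was past 2-fold, BCL2L14, at -1.02. The list of 24 YAP-TEAD genes had 1 higher, the coactivator gene WWTR1 at 8.44 and 10.03, a pathway regulator and not a target. It had 2 lower, AJUBA at 10.31 and 8.38 and GADD45B at 8.12 and 6.77. Probe sets of WWTR1 ranged from 0.44 to 1.59 and those of GADD45B from -1.35 to -0.26. Glycolytic enzymes had 1 of 21 past 2-fold, LDHB, or 0 with LDHB at its other probe set, since its direction is not settled. Of 17 hypoxia targets 1 was higher and 4 were lower, against 0.908% and 2.51% of all genes, with a median of -0.28. Among them were CA12, a carbonic anhydrase, at 7.76 and 9.12 and ADM, the peptide adrenomedullin, at 10.78 and 9.67.

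Families of genes named by a common stem were compared by the share of members past 2-fold, over the 216 families with at least 8 genes measured. The calpains had 2 of 12 higher, CAPN2 at 1.05 and CAPN8 at 1.09, with CAPN6 lower, and a second CAPN2 probe set was at 0.24. The annexins, calcium-dependent membrane binders, had ANXA1 and ANXA10 higher and ANXA9 lower of 17, the parental reading of ANXA10 being below 5.73. The HOXB genes, which set position along the body axis, had 3 of 10 lower. HOXB8 read 7.14 and 5.52, HOXB3 9.14 and 7.66, and HOXB9 7.55 and 6.10, although a second HOXB9 probe set was at 0.15, which leaves 2 of 10. The HOXB median was -0.54 in Colo205 and -0.53 in the HT29 pair. The POU stem had 2 of 8 lower and 0 higher, and the 2 were the coactivator genes POU2AF1 and POU2AF3, not POU-domain factors. The PRSS stem had 3 of 15 lower and 0 higher, PRSS2, PRSS33 and the pseudogene PRSS3P2. These shares were picked among the highest of many and have no test.

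Differences were not spread evenly over chromosomes. Over all genes 7148 of 13651 lay below 0, and 2.51% were 2-fold or more lower. Chromosome 15 had a median of -0.23 over 443 genes, 74.3% of them below 0, with 25 genes (5.64%) 2-fold or more lower and 3 higher. Chromosome 12 had a median of -0.24 over 733 genes, 70.0% of them below 0, with 35 (4.77%) lower and 11 higher. In the HT29 pair these medians were 0.02 and -0.04. Chromosome 5, at a median of 0.02, held 10 of the 65 genes 4-fold lower, the most of any chromosome, and chromosome 15 held 7. Whether gene copies or transcription differ cannot be told apart on expression arrays.

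On chromosome 12 a stretch of neighbours went against the rest. Runs of neighbours were picked on the Colo205 differences, so a smaller HT29 median follows in part from that choice. Between RECQL and ITPR2, 7 of 13 measured genes were 2-fold or more higher, with a median of 1.02 in Colo205 and -0.11 in the HT29 pair. In order these were LDHB (1.02), CMAS (2.85), ETNK1 (1.61), BCAT1 (5.78), IRAG2 (1.16), DNAI7 (2.31) and ETFRF1 (3.54). ETNK1, an ethanolamine kinase, read 10.19 and 11.80, and its probe sets ranged from 1.61 to 5.87. LDHB, a lactate dehydrogenase subunit, read 5.23 and 6.24, with probe sets from -0.48 to 1.02, so its direction is not settled. With LDHB at -0.48 the run had 6 of 13 genes higher and a median of 0.28. The outermost genes RECQL (-0.43), GOLT1B (-0.53) and ITPR2 (-0.47) were below 0, as was most of the chromosome.

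Other runs of neighbours were lower. On chromosome 5 the run from FST to SLC38A9 held SNX18 (-1.12), GZMA, GPX8 and PLPP1 (-1.03) with a median of -0.41 over 11 genes. GZMA and GPX8 are neighbours there. On chromosome 7 the run from LAMB1 to DOCK4 held LAMB1, a laminin chain, at 10.42 and 9.0, NRCAM, DNAJB9 and DOCK4 (-1.91), with a median of -1.16 over 7 genes. On chromosome 4 the run from SNX25 to FAM149A held the hypoxia gene ANKRD37 (-1.29) and TLR3 (-1.89), an RNA sensor. On chromosome 12 CKAP4 stood with NUAK1 (-1.60) and TMEM263 (-1.40), and CDKN1B with CREBL2 (-1.03) and APOLD1 (-1.06). The run from CAPRIN2 to DNM1L on the same chromosome held SINHCAF (-1.13) together with 2 higher genes, FGD4 and CAPRIN2 (1.32), the latter with probe sets from -0.24 to 1.32. On chromosome 15 WDR72, PIERCE2 (-1.23) and DNAAF4 lay in 1 run. The resistant readings of DOCK4, TLR3 and NUAK1 lay below 5.73, and with the floor their differences were -0.37, -0.90 and -1.14. In the HT29 pair, whose values had no part in picking the runs, the medians of these 7 runs lay between -0.23 and 0.03. The contrast with Colo205 therefore follows in part from the choice of runs.

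**Figure D5:**
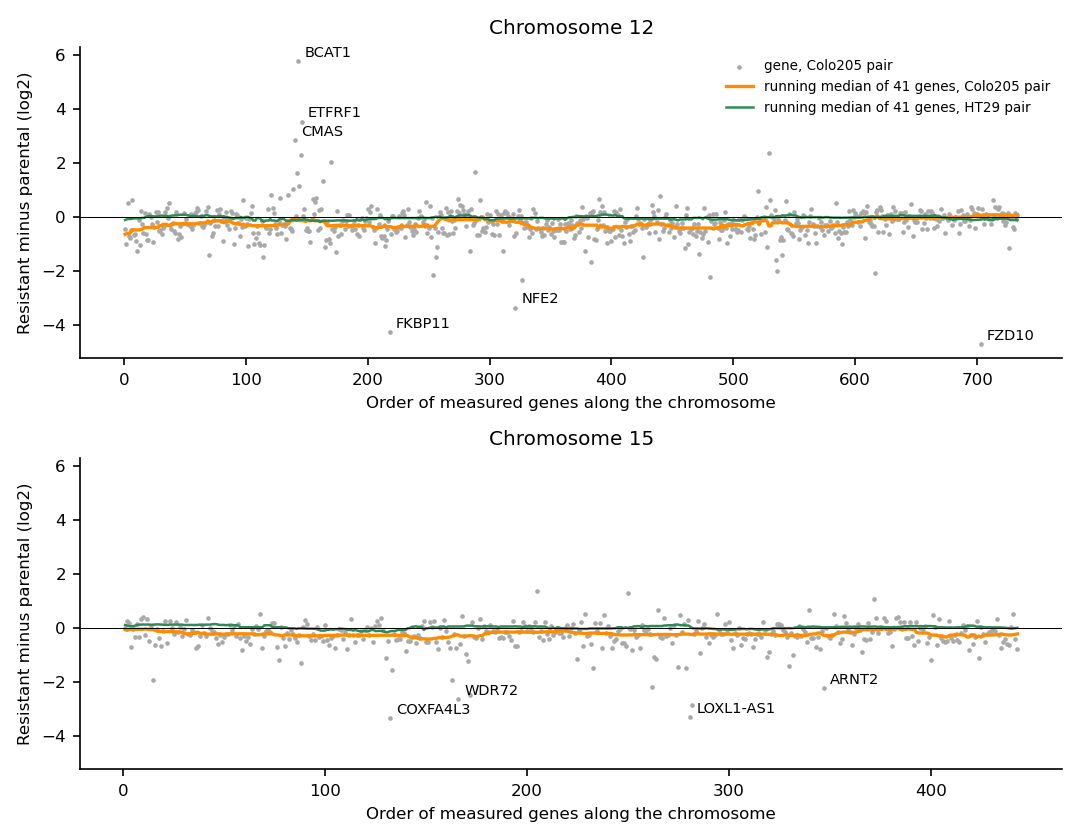
Difference of each measured gene (grey points, vertical axis, log2) in the Colo205 pair by gene order along chromosomes 12 and 15, with running medians over 41 genes for the Colo205 pair (orange) and the HT29 pair (green). The Colo205 line runs below 0 over most of both chromosomes, where the HT29 line stays close to 0, and BCAT1, ETFRF1 and CMAS stand out above it.

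The genes past 4-fold were set beside their values in the HT29 pair. Of the 25 genes 4-fold higher in Colo205, 12 were 2-fold or more higher in resistant HT29, 2 were 2-fold or more lower, IFI27 and IFIT1, and 11 lay within 2-fold, against 3.42% of all genes higher and 1.72% lower there. Of the 65 genes 4-fold lower, 9 were lower by the same measure in resistant HT29, 6 were higher and 50 lay within 2-fold, and 28 of the 65 were below 5.73 on both HT29 arrays, where a lower reading could not be seen. Genes past 2-fold the same way in both pairs included S100A2, TNC, NR2F1 and TESC. Examples of genes that read alike in both HT29 arrays at a high level were GLUL, FKBP11, at 11.19 and 10.92, and SPINK1, at 11.51 and 11.54. CMAS, at 9.19 and 9.80, was higher by 0.61 in resistant HT29, within 2-fold. The 2 pairs share no array, and the lines were not tested against each other.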

How the data were processed

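Total RNA of 4 samples was hybridised as biotin-labelled cRNA to 1 Affymetrix array each. The authors deposited log2 expression values for 54675 probe sets. That they are on a log2 scale was taken from their range, 2.51 to 14.88. MAS5 and RMA appear in the submitters' processing notes with no stated role, and for the background correction the sources used here give no method. Precision is limited by the number of arrays.

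Names of probe sets came from the platform annotation. Of them 41091 named 1 gene, 1801 several and 11777 none, and there were 62 control probe sets. The RefSeq gene table of GRCh38.p14 held 41037 of the 41091 and changed the symbol of 0. A gene's probe set was the one with the highest 4-array mean, and the gene was kept where 1 array reached 5.73, the median of all values. Differences were taken per pair, with Python 3.11.15 and pandas 2.3.3, and counted at 2-fold and 4-fold. No p-value was computed.

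Gene order came from RefSeq, with 13631 genes placed, and runs were windows of 7 genes with a median of at least 0.8 in size, merged. Promoters came from RefSeq. The 30 gene lists and the members named were chosen with earlier results of these data known. The rule gave 175 genes: those past 4-fold, and list members and run members past 2-fold, EGFR and MAP3K8 among them. Further members of the described families past 2-fold, DUSP6 and LGR5 are also named and are not counted in the 175. Within-2-fold genes are named for contrast. Alternatives are given in the closing section. Some genes are not reported here.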

Additional observations from a re-analysis of the deposited data

Results flagged for a closer look

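Some genes were 2-fold or more apart in opposite directions in the Colo205 and HT29 pairs. Each direction rests on 1 array a side, and the lines were not tested against each other.

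Among the interferon-stimulated genes, IFI27 was at 3.40 in Colo205 and -1.24 in HT29, IFIT1 at 2.80 and -1.66, and IFI44 at 1.54 and -1.65. Both Colo205 readings of IFI44 lie below 5.73, so its Colo205 difference has no exact size. The parental Colo205 reading of IFIT1, at 4.45, and its resistant HT29 reading, at 5.36, also lie below 5.73.

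The others were lower in resistant Colo205 and higher in resistant HT29. The co-chaperone gene DNAJC12 was at -4.37 and 1.32, the matrilin gene MATN2 at -3.37 and 1.21, and the metalloproteinase inhibitor gene TIMP2 at -3.23 and 2.90. The resistant Colo205 readings of DNAJC12, MATN2 and TCEAL9 lie below 5.73, so these Colo205 differences have no exact size. TCEAL9 was at -2.78 and 1.47, the fatty acid carrier gene FABP1 at -2.17 and 2.30, and the forkhead gene FOXD1 at -2.05 and 1.70. The prolyl isomerase gene FKBP9 was at -1.77 and 1.29, the trypsinogen gene PRSS2 at -1.72 and 1.46, and the zinc transporter gene SLC30A4 at -1.55 and 1.97.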

How the results depend on the processing

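No paired analysis was possible because each group holds 1 array. Counts were recomputed under 11 alternatives, of which the subtraction of chromosome medians was chosen after seeing the data. A further one, also chosen then, took ATF3, LDHB, KSR1 and HOXB9 at a probe set of the other sign, and its counts stand beside their groups. The 2-fold counts ran from 96 to 166 higher and from 231 to 358 lower, with more lower than higher genes under each of the 11. The 4-fold higher count ran from 17 to 28. The 4-fold lower count was 27 when both Colo205 readings had to reach 5.73 and 40 when readings below 5.73 were raised to it, against 65 as reported. Of the 90 genes past 4-fold, 90 stayed past 2-fold on median-centred arrays and 83 with low readings raised to 5.73, where 61 stayed past 4-fold. ATF3 changed direction, to 0.39, when its probe set was chosen on the Colo205 arrays and when probe sets with shared sequence (_x_at and _s_at) were left out. No other gene of the 175 reversed under the 11, a check that leaves out the further family members, DUSP6 and LGR5. Raising low readings to 5.73 moved 51 of the 175 by more than the 0.30 between probe sets, and averaging probe sets moved 41. AKAP12 was at 0.79, MAP3K8 at -0.36 and TMT1A at -0.18 without the shared probe sets. What limits these values is the single array on each side and readings near background, which touch 106 of the 343 lower and 23 of the 124 higher genes on 1 side.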
